A study of Mus musculus with 2 samples.

Results

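The genes described here are 37 genes of ribosome biogenesis, with Myc and Mycn among them, out of 53273 genes that could be read in single bone marrow cells of the Fucci cell cycle reporter mouse. They were taken as a list by name: the 2 Myc family regulators, 5 abundant nucleolar proteins, 4 box C/D and 4 box H/ACA ribonucleoprotein genes, 7 genes of RNA polymerase I and rDNA transcription, 5 of small subunit maturation and 10 of large subunit maturation. All 37 had at least 1 count in every gate, and 35 had at least 10 counts in every gate, the exceptions being Heatr1 and Tsr1.

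The source was marrow of C57BL/6 mice aged 8 weeks, in a study on the expansion of blood stem cells at rest. In the Fucci mouse the orange protein mKO2 carries a piece of Cdt1 and accumulates in G0 and G1, and the green protein mAG carries a piece of geminin and accumulates in S, G2 and M. There were 4 gates of 48 cells: mKO2high and mKO2low, which shared 1 library, and mKO2neg and mAG+, which shared the other. The labels give all gates the same strain, tissue and age and no treatment, and do not say which animals were used. A gate therefore counts as 1 sample, and no difference below has a replicate check or a test. The sources used here do not give the surface markers sorted on before the reporter gates or the promoter that drives the reporter.

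Ribosomes are assembled in the nucleolus. RNA polymerase I transcribes the rDNA into a long precursor, box C/D and box H/ACA ribonucleoproteins guide the methylation and pseudouridylation of that RNA, and large sets of assembly factors cut and fold it into the small and large subunits. Myc, and its relative Mycn, are transcription factors that bind DNA with Max and are known to switch on many of these genes. In blood stem cells, Myc and Mycn act together in survival and in the balance between self-renewal and differentiation, and resting stem cells are known for a low rate of protein synthesis.

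The gene names in the deposited tables were displaced by 1 gene, so the names used here are a reading of the data and not the authors' labels. With the rows put in the order of the GENCODE M21 annotation, each gene was read from the row of the gene just before it. Read that way, 92.8% of all counts lay in protein-coding genes, against 52.0% under the labels as deposited and at most 53.2% at any other displacement of up to 3 rows. Of 16 genes that nearly every cell transcribes, such as Actb and Gapdh, all 16 then had at least 1000 counts, against 1 of 16 as deposited. Chromosome 19 was the exception to the gain, with 76.2% of its counts in protein-coding genes as deposited and 73.7% after the move. Of the members, Nolc1 and Rcl1 lie on that chromosome, and their values carry this doubt. The 37 members held 44039 counts when read from the preceding rows and 4040 under their own labels, where 16 of them had no count at all. For Wdr43 and Rcl1, 2 genes of the annotation that are not among the deposited rows lie between the preceding row and the gene, so their reading has less support.

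Gate totals were 934036 counts in mKO2high, 1703263 in mKO2low and 1608630 in mKO2neg, and 2791584 in mAG+, and the median cell held from 14510.5 counts in mKO2high to 45177 in mAG+. Levels are a gene's counts over the 48 cells relative to all counts of that gate (CPM), and differences are log2 ratios of CPM with a prior count of 1. The 95% intervals printed with them cover counting error only, because reads are not known to be independent molecules and cells of a gate are not replicates. A gene was counted as higher or lower where 2 gates differed by at least 1.5-fold and held at least 10 counts between them. Since depth differs between cells, shares of cells with a count are also given after every cell was thinned to 5000 counts, which leaves 39 mKO2high, 48 mKO2low, 43 mKO2neg and 45 mAG+ cells. Cell cycle genes followed the gates under this reading. Summed over 14 S phase genes, the level was 513 CPM in mKO2high, 1133 in mKO2low and 1690 in mKO2neg, and 2590 in mAG+, and over 14 G2 and mitosis genes it was 64.2, 141 and 848 CPM in the first 3 gates and 7939 in mAG+. No cell name occurred in both libraries.

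The sequence that Myc and Max are known to bind best is CACGTG, which reads the same on both strands. It was present in the 300-base promoter (250 bases before the start site and 50 after it, RefSeq, GRCm38.p6) of 6 of the 32 members with an entry, or 18.8%. The same letters were in 8.09% of all 27025 genes with a promoter entry and in 11.9% of the 9493 such genes with at least 10 counts in these cells. The 6 stretches are shown because they carry the match within the promoters of genes described below, with the match in capitals and the start site as base 1.
Nop2 (chr6:125131811-125131840, plus strand, match from base -60): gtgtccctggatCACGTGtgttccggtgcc
Ltv1 (chr10:13193092-13193121, minus strand, match from base 29): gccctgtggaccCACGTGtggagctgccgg
Pes1 (chr11:3963965-3963994, plus strand, match from base 3): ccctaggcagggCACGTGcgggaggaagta
Mybbp1a (chr11:72441355-72441376, plus strand, match from base 41): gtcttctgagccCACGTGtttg
Tsr1 (chr11:74898092-74898121, plus strand, match from base 25): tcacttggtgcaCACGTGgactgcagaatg
Wdr43 (chr17:71616220-71616249, plus strand, match from base 18): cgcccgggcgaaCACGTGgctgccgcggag
The match lies before the RefSeq start site in Nop2 and after it in the other 5, and the RefSeq start was found within the longest coding GENCODE transcript for 4 of these, not for Mybbp1a. A match describes these letters and is not evidence of binding. Promoters of Myc, Npm1, Fbl, Bop1 and Rrs1 were not searched here.

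Within the library of mKO2neg and mAG+ cells, the mAG+ cells had less Myc and Mycn RNA than mKO2neg cells, and most of the processing factors were lower with them. Of the 37 members, 30 had a lower level in mAG+ than in mKO2neg and 7 a higher one, with a median log2 ratio of -0.42, where the median over all 12115 genes was 0.06. By at least 1.5-fold, 11 members (29.7%) were lower, against a background of 24.3% of all genes, and 2 members (5.41%) were higher, against 31.2%. The share of members lower is thus near the background, while the share higher is below it. Among genes with at least as many counts as the scarcest member, the background was 22% lower and 27.6% higher.

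Within the library of mKO2high and mKO2low cells, Gnl3 was higher in mKO2low than in mKO2high and Myc was lower, and Npm1 and Ncl were higher by less than 1.5-fold. The members as a whole split, with 22 higher and 15 lower and a median of 0.13 against 0.05 over 10901 genes. By at least 1.5-fold, 6 members (16.2%) were higher, below the 29.4% of all genes, and 5 (13.5%) were lower, below the 25.2% of all genes. The median was -0.06 with equal weight for each cell and also after thinning, so its direction depends on how cells are weighted.

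**Figure D1:**
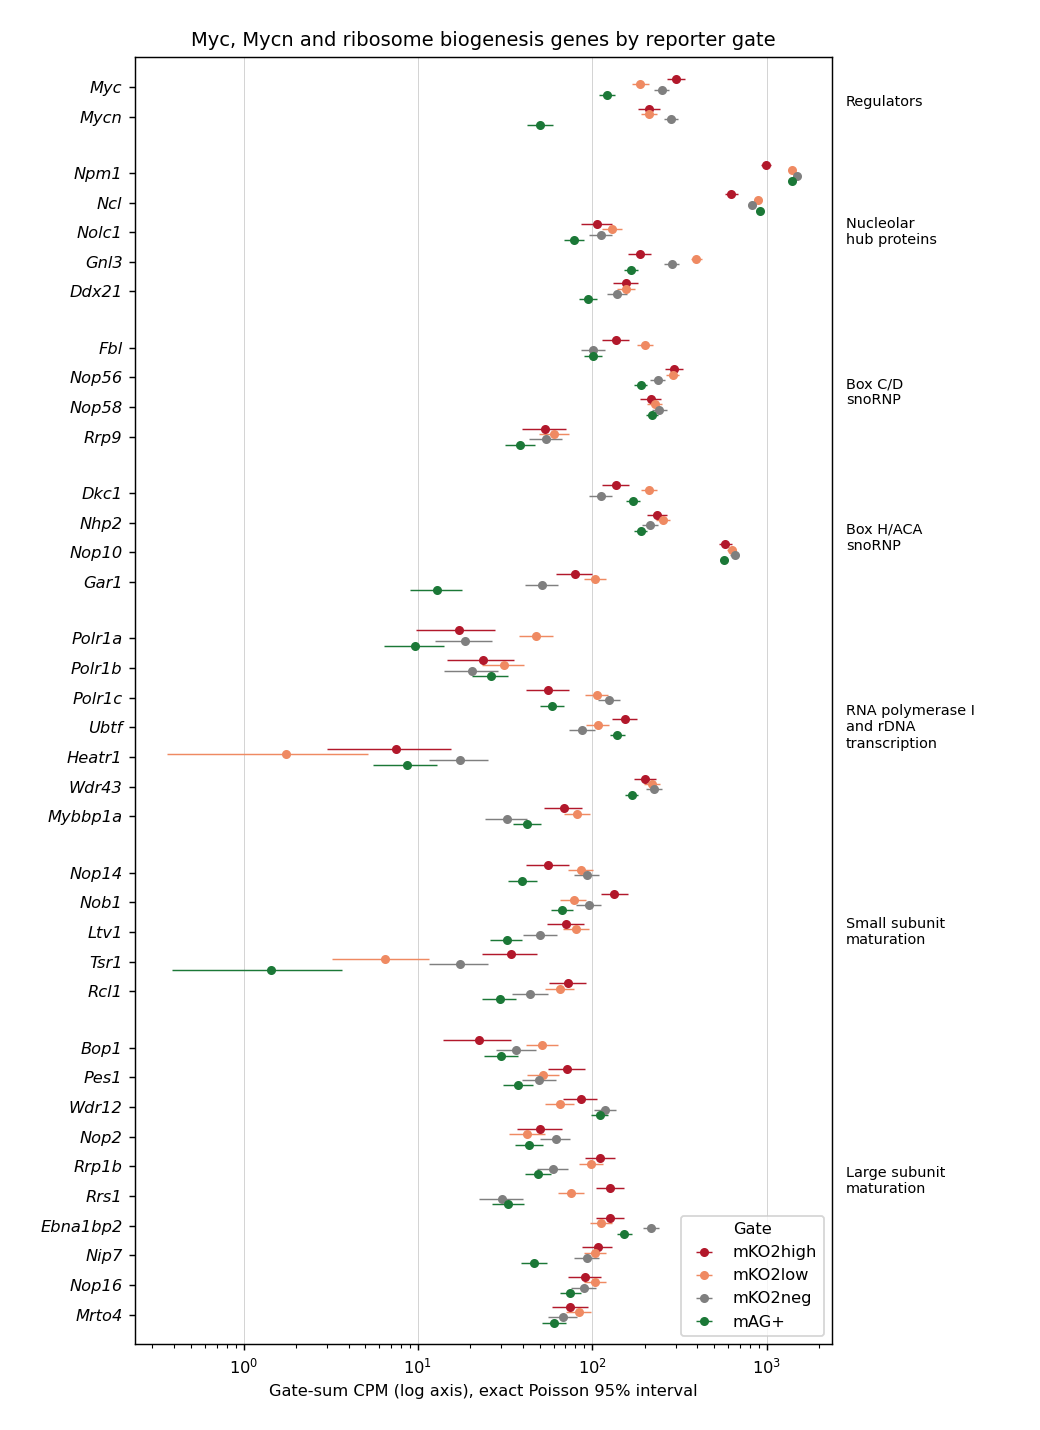
Level of each of the 37 genes in each gate, in CPM on a log scale, grouped by role; points are gate sums of 48 cells and bars are exact Poisson 95% intervals for counting error. The mAG+ point is the lowest of the 4 gates for 22 of the 37 genes and the highest for Ncl alone.

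Myc (chromosome 15, 61985391 to 61990374, plus strand, GRCm38) had a level of 301 CPM in mKO2high (95% interval 267 to 338), 188 in mKO2low (168 to 210) and 249 in mKO2neg (225 to 275), and 121 in mAG+ (109 to 135). It was thus highest in the gate with the most mKO2 and lowest in the gate with mAG, and none of the 4 counting intervals but those of mKO2high and mKO2neg overlapped. The log2 ratio of mAG+ to mKO2neg was -1.04 (-1.25 to -0.83), and the ratio of mKO2low to mKO2high was -0.67 (-0.91 to -0.44). The latter was -0.32 after thinning, short of 1.5-fold, and -0.92 when the deepest cell of each gate was left out. With the cell holding the most Myc counts left out of each gate, it was -0.62. At the deposited depth 26, 31, 35 and 32 of 48 cells had a Myc count in mKO2high, mKO2low, mKO2neg and mAG+. At equal depth these shares were 41.0%, 39.6%, 60.5% and 31.1%, so at equal depth mKO2neg had the largest share of cells with Myc although mKO2high had the highest CPM. The cell with the most Myc held 19.6% of the gate's Myc counts in mKO2high and 11.5% in mKO2neg.

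Mycn (chromosome 12, 12936093 to 12941914, minus strand) had a level of 212 CPM in mKO2high (183 to 244), 211 in mKO2low (190 to 234) and 282 in mKO2neg (256 to 309), and 50.2 in mAG+ (42.2 to 59.2). The 3 gates without mAG were within 1.33-fold of each other in gate sums, and mAG+ stood apart below them. Mycn was 5.57-fold lower in mAG+ than in mKO2neg, with a ratio of -2.48 (-2.77 to -2.21), the largest drop among members with at least 100 counts in each gate. Between mKO2low and mKO2high the ratio was -0.00 (-0.26 to 0.25). After thinning that ratio was -0.50 and the ratio of mKO2neg to mKO2low was 0.67, so the closeness of these gates did not hold at equal depth. Cells with a Mycn count numbered 29, 33, 34 and 24 of 48 at the deposited depth and made up 48.7%, 52.1%, 58.1% and 22.2% at equal depth. The 95% intervals of the last of these shares, 11.2% to 37.1% in mAG+, and of mKO2neg, 42.1% to 73.0%, did not overlap, whereas for Myc the intervals of those gates, 18.2% to 46.6% and 44.4% to 75%, did. The third family member, Mycl, had no count in any gate, which allows at most 3.21 CPM in mKO2high and 1.07 in mAG+.

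Counts of Myc and Mycn in the same cell were also fewest in mAG+. At equal depth both were counted in 8 of 39 mKO2high cells, 8 of 48 mKO2low cells, 14 of 43 mKO2neg cells and 3 of 45 mAG+ cells. Neither was counted in 12, 12, 6 and 24 cells of those gates. More than the share of any other gate, 24 of 45 mAG+ cells lacked both at this depth, while at the deposited depth 9 of 48 did. Of cells with only 1 of the pair, mAG+ had 11 with Myc and 7 with Mycn, and mKO2low had 11 with Myc and 17 with Mycn.

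**Figure D2:**
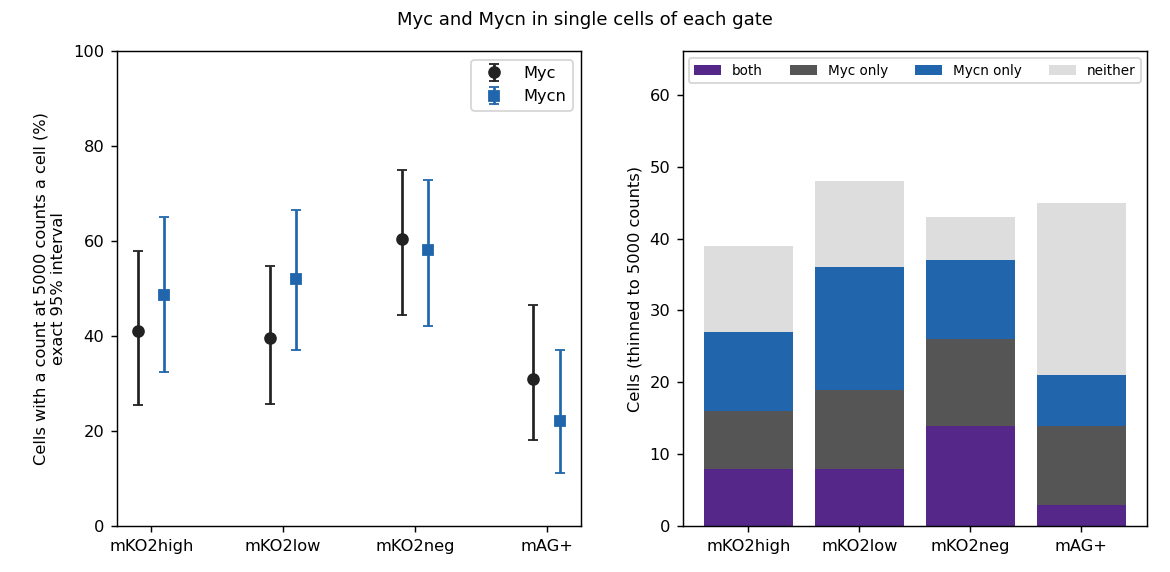
Left, percent of cells of each gate with a count of Myc or Mycn after thinning to 5000 counts, with exact Clopper-Pearson 95% intervals; right, number of those cells with a count of both, of Myc only, of Mycn only and of neither. Mycn is counted in 58.1% of mKO2neg and 22.2% of mAG+ cells, and 24 of 45 mAG+ cells have a count of neither.

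The 5 nucleolar hub proteins together reached 2066 CPM in mKO2high, 2968 in mKO2low and 2855 in mKO2neg, and 2658 in mAG+. The log2 ratio of mKO2low to mKO2high was above 0 for all 5, of which only Gnl3 reached 1.5-fold (20%, against 29.4% of all genes), with a summed log2 ratio of 0.52 (0.45 to 0.60). From mKO2neg to mAG+ 4 of 5 were lower, and the sum differed little, with a ratio of -0.10 (-0.16 to -0.05). Npm1 (chromosome 11, 33152287 to 33163206, minus strand), the nucleolar chaperone nucleophosmin, had 990, 1394, 1498 and 1400 CPM in mKO2high, mKO2low, mKO2neg and mAG+, so mKO2high was low and the other 3 were close. Its ratio was 0.49 (0.38 to 0.60) for mKO2low to mKO2high and -0.10 (-0.17 to -0.02) for mAG+ to mKO2neg. Near-identical Npm1 pseudogenes held only 45 counts beside Npm1's 9616.

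Ncl, nucleolin, had 627, 892, 822 and 918 CPM in the same order of gates. It was the only member with its highest level in mAG+, with a ratio to mKO2neg of 0.16 (0.06 to 0.26), and like Npm1 it was lowest in mKO2high. Gnl3 (chromosome 14, 31012433 to 31019152, minus strand), the nucleolar GTPase nucleostemin, had 187 CPM in mKO2high, 395 in mKO2low and 285 in mKO2neg, and 166 in mAG+. It was 2.10-fold higher in mKO2low than in mKO2high, a ratio of 1.07 (0.83 to 1.32), and lower in mAG+ than in mKO2neg at -0.77 (-0.97 to -0.59), so that mKO2high and mAG+ were both low.

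Nolc1, a chaperone of the small nucleolar particles, had 106, 130, 112 and 78.5 CPM. Its mAG+ level was the lowest, with a ratio to mKO2neg of -0.51 (-0.80 to -0.22). Ddx21, an RNA helicase that acts in rRNA transcription and processing, had 155, 157, 139 and 94.6 CPM. The mKO2 gates were alike in Ddx21, with a ratio of 0.01 (-0.28 to 0.32), and mAG+ was lower than mKO2neg at -0.56 (-0.82 to -0.29). However, 1 mKO2neg cell held 40.2% of that gate's Ddx21 counts. At equal depth 37.2% of mKO2neg and 37.8% of mAG+ cells had a Ddx21 count.

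The box C/D genes, whose particles methylate rRNA, summed to 700 CPM in mKO2high, 778 in mKO2low and 635 in mKO2neg, and 548 in mAG+. None of the 4 differed by 1.5-fold within either library. Fbl, the methyltransferase fibrillarin, had 137, 201, 101 and 101 CPM, so mKO2low was high and both gates of the other library were low and equal. Nop56 and Nop58 form the core of the particle. Nop56 had 293, 289, 237 and 189 CPM, lowest in mAG+ with a ratio to mKO2neg of -0.33 (-0.52 to -0.13). However, 1 mKO2neg cell held 40.3% of that gate's Nop56 counts. At equal depth 39.5% of mKO2neg and 57.8% of mAG+ cells had a Nop56 count. The mean over cells with at least 1000 counts was 187 CPM in mKO2neg and 181 in mAG+. Nop58 had 216, 228, 242 and 219 CPM and did not reach 1.5-fold between any gates compared. Rrp9, which binds the U3 small nucleolar RNA, had 53.5, 60.5, 54.1 and 38.7 CPM, with a ratio of mAG+ to mKO2neg of -0.48 (-0.90 to -0.06).

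The box H/ACA genes, whose particles convert uridine to pseudouridine in rRNA, summed to 1030, 1201, 1033 and 941 CPM, and the members went different ways. Dkc1, the pseudouridine synthase dyskerin, had 137, 211, 112 and 171 CPM. It was higher in the second gate of both libraries, with a ratio of 0.62 (0.33 to 0.93) for mKO2low to mKO2high and 0.61 (0.36 to 0.86) for mAG+ to mKO2neg. The first of these turned to -0.22 when cells were thinned to 5000 counts.

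Gar1 (chromosome 3, 129824912 to 129831396, minus strand), which helps the H/ACA particle to release its product, had 79.2 CPM in mKO2high, 104 in mKO2low and 51.6 in mKO2neg, and 12.9 in mAG+. In mAG+ it was 3.90-fold lower than in mKO2neg, with a ratio of -1.96 (-2.61 to -1.42), opposite in direction to its partner Dkc1. At equal depth 13 mKO2high, 16 mKO2low and 6 mKO2neg cells had a Gar1 count, and 0 of 45 mAG+ cells, where 3 counts taken as the limit allow up to 6.67% of cells with a count at that depth. At the deposited depth 11 of 48 mAG+ cells had one. The other core proteins differed little between gates. Nhp2 had 236, 254, 214 and 190 CPM and Nop10 had 578, 632, 656 and 568 CPM, with ratios of mAG+ to mKO2neg of -0.17 (-0.37 to 0.03) and -0.21 (-0.32 to -0.09). For Nop10, 1 mKO2neg cell held 28.0% of that gate's counts. Its mean over cells with at least 1000 counts was 502 CPM in mKO2neg and 534 in mAG+.

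The RNA polymerase I and rDNA transcription genes summed to 527 CPM in mKO2high, 597 in mKO2low and 527 in mKO2neg, and 453 in mAG+. Polr1a, the largest subunit of the polymerase, had 17.1, 47.6, 18.6 and 9.67 CPM, with mKO2low above the other 3. These levels rest on 16, 81, 30 and 27 counts, and the ratios were 1.43 (0.69 to 2.35) for mKO2low to mKO2high and -0.92 (-1.75 to -0.15) for mAG+ to mKO2neg. Polr1b, the second largest subunit, had 23.6, 31.1, 20.5 and 26.1 CPM, and its intervals overlapped in all gates.

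Polr1c, a subunit shared with RNA polymerase III, had 55.7 CPM in mKO2high, 106 in mKO2low and 125 in mKO2neg, and 58.7 in mAG+. The middle gates were high and the outer ones low, with ratios of 0.92 (0.47 to 1.40) for mKO2low to mKO2high and -1.08 (-1.40 to -0.78) for mAG+ to mKO2neg. Ubtf, which binds the rDNA and keeps it open for transcription, ran the other way. It had 154, 107, 87.7 and 139 CPM, higher in mKO2high and mAG+, with a ratio of -0.52 (-0.84 to -0.20) for mKO2low to mKO2high and 0.67 (0.39 to 0.96) for mAG+ to mKO2neg.

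Wdr43, which couples rDNA transcription to early processing, had 200, 221, 226 and 168 CPM, lowest in mAG+ in gate sums. At equal depth 41.9% of mKO2neg and 48.9% of mAG+ cells had a Wdr43 count. The mean over cells with at least 1000 counts was 175 CPM in mKO2neg and 155 in mAG+. Mybbp1a, a nucleolar Myb-binding protein, had 68.5, 82.2, 32.3 and 42.3 CPM. Here the split followed the library, with both gates of the mKO2neg and mAG+ library low, so gate and library cannot be told apart. Heatr1, needed for rDNA transcription and early processing, was the scarcest member with 62 counts in all, 7, 3, 28 and 24 by gate. A single mKO2neg cell held 75% of that gate's Heatr1 counts, and without the top cell of each gate its ratio of mAG+ to mKO2neg went from -0.98 to 0.60.

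In gate sums, the small subunit factors had the clearest low level in mAG+ of the processing groups. They had 367 CPM in mKO2high, 316 in mKO2low and 300 in mKO2neg, and 170 in mAG+. All 5 were lower in mAG+ than in mKO2neg in these sums, and the summed ratio was -0.82 (-1.01 to -0.63). By at least 1.5-fold 3 were lower in the same sums (Nop14, Ltv1 and Tsr1, the last on 4 mAG+ counts), against 24.3% of all genes. Nop14, a factor of the early small subunit precursor, had 55.7, 86.3, 92.6 and 39.8 CPM. Its ratio of mAG+ to mKO2neg was -1.21 (-1.59 to -0.86), and that of mKO2low to mKO2high, 0.63 (0.17 to 1.12), was -0.02 at equal depth. Nob1, the nuclease that makes the last cut of 18S rRNA, had 134, 78.1, 95.1 and 67.0 CPM, highest in mKO2high, with a ratio of mKO2low to mKO2high of -0.77 (-1.14 to -0.41). This rests on the gate sums. The mean over cells with at least 1000 counts was 101 CPM in mKO2high, 97.2 in mKO2low and 116 in mKO2neg. At equal depth 25.6% of mKO2high and 25% of mKO2low cells had a Nob1 count.

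Ltv1, which escorts the small subunit out of the nucleus, had 70.7, 80.4, 50.4 and 32.2 CPM. The mAG+ level was again the lowest, with a ratio to mKO2neg of -0.64 (-1.09 to -0.19) in gate sums. However, 1 mKO2neg cell held 30 of that gate's 81 Ltv1 counts. At equal depth 16.3% of mKO2neg and 15.6% of mAG+ cells had a Ltv1 count. The mean over cells with at least 1000 counts was 40.9 CPM in mKO2neg and 33.9 in mAG+. Rcl1, a protein of the early cleavages, had 72.8, 65.2, 44.1 and 29.4 CPM, in gate sums lower in each gate than in the one before it. Its ratio of mAG+ to mKO2neg was -0.58 (-1.06 to -0.11). At equal depth, however, 11.6% of mKO2neg and 17.8% of mAG+ cells had a Rcl1 count. The mean over cells with at least 1000 counts was 37.2 CPM in mKO2neg and 37.3 in mAG+. Tsr1, a late assembly factor, had only 32, 11, 28 and 4 counts, or 34.3, 6.46, 17.4 and 1.43 CPM. Its ratios were -2.28 (-3.54 to -1.38) and -3.24 (-5.57 to -2.09), but 1 cell held at least 36.4% of its counts in every gate and 32.3% of its exon bases overlap Srr on the opposite strand, whose reads cannot be told apart without strand.

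The large subunit factors summed to 867 CPM in mKO2high, 790 in mKO2low and 825 in mKO2neg, and 638 in mAG+. From mKO2neg to mAG+ 9 of 10 were lower, but only Nip7 by 1.5-fold, and the summed ratio was -0.37 (-0.47 to -0.27). Bop1, Pes1 and Wdr12 form the PeBoW complex, and their gate sums did not run together. Bop1 had 22.5, 51.7, 36.7 and 30.1 CPM, with a ratio of mKO2low to mKO2high of 1.17 (0.50 to 1.96). Pes1 had 71.7, 52.3, 49.7 and 37.6 CPM, highest where Bop1 was lowest, but 1 mKO2high cell held 35.8% of that gate's Pes1 counts. Wdr12 had 85.6, 65.2, 118 and 110 CPM, higher in the library of mKO2neg and mAG+ in gate sums. As means over cells with at least 1000 counts, Bop1, Pes1 and Wdr12 were each highest in mKO2neg. Those means were 44.7, 59.6 and 122 CPM.

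Nip7, which binds the large subunit precursor, had 107 CPM in mKO2high, 104 in mKO2low and 93.2 in mKO2neg, and 46.6 in mAG+. The first 3 gates were close and mAG+ was below them, with a ratio to mKO2neg of -0.99 (-1.35 to -0.65). Rrs1, which brings 5S rRNA particles into the large subunit, had 126, 75.7, 30.5 and 33.0 CPM. Rrp1b, a nucleolar regulator of rRNA processing, had 111, 98.6, 59.7 and 49.1 CPM. Both were higher in the mKO2high and mKO2low library, and Rrs1 was also lower in mKO2low than in mKO2high at -0.73 (-1.11 to -0.37). Yet Rrs1 was counted in only 9 of 48 mKO2high cells, against 19 of 48 in mKO2low. At equal depth these shares were 15.4% and 25%. The mean over cells with at least 1000 counts was 69.1 CPM in mKO2high and 63.6 in mKO2low.

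Ebna1bp2, a partner of nucleolar assembly factors, had 126, 112, 218 and 153 CPM, highest in mKO2neg. Nop2, an rRNA cytosine methyltransferase, had 50.3, 42.3, 61.5 and 43.3 CPM, with a ratio of mAG+ to mKO2neg of -0.50 (-0.90 to -0.11). The remaining large subunit factors did not reach 1.5-fold in any comparison. Nop16 had 91, 104, 89.5 and 74.9 CPM and Mrto4, a stalk assembly factor, had 74.9, 84.0, 67.8 and 60.5 CPM, and in both genes the within-library intervals included 0.

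**Figure D3:**
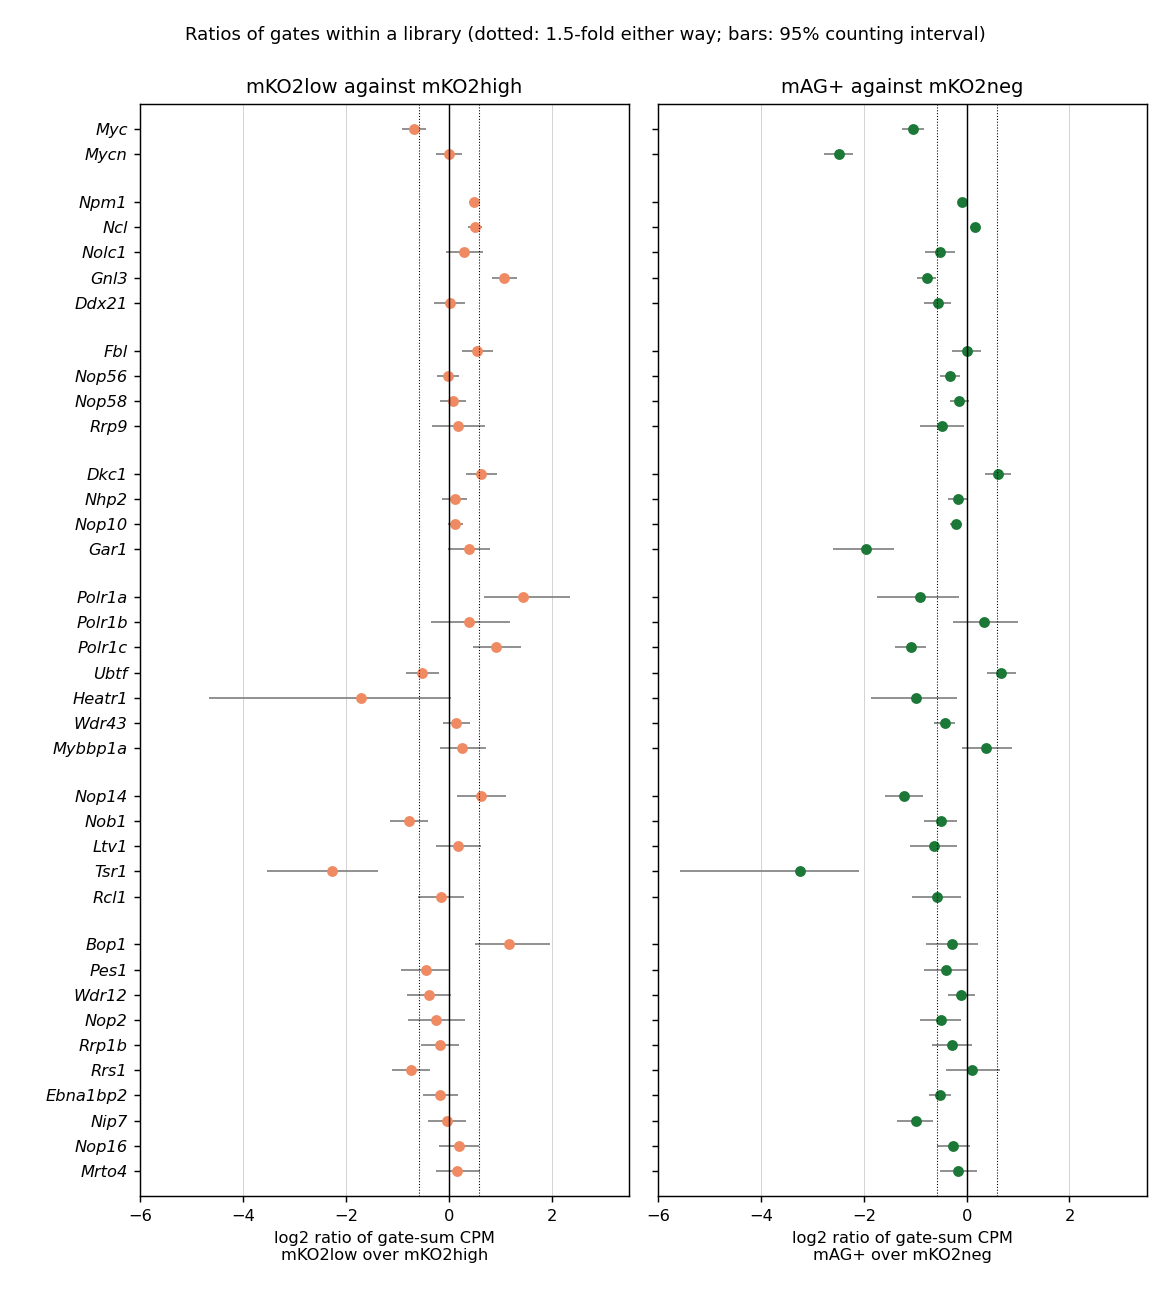
Log2 ratio of CPM for each member within each library, mKO2low to mKO2high and mAG+ to mKO2neg, with exact binomial 95% intervals for counting error and lines at 1.5-fold. In the mAG+ comparison 30 of 37 genes lie below 0, Tsr1, Mycn and Gar1 farthest, while in the mKO2 comparison 22 lie above 0.

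The summed level of the 35 members without Myc and Mycn varied less than most single genes. It was 5558 CPM in mKO2high, 6650 in mKO2low and 6175 in mKO2neg, and 5408 in mAG+, so mKO2low was highest and mKO2high and mAG+ were close. The ratio was 0.26 (0.21 to 0.31) for mKO2low to mKO2high and -0.19 (-0.23 to -0.15) for mAG+ to mKO2neg. Npm1 weighs heavily in this sum, with 17.8% of its counts in mKO2high and 25.9% in mAG+.

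Cell by cell at equal depth, the difference between the mKO2 gates was not seen. The median share of counts in the 35 genes was 0.62% in mKO2high (range 0.20% to 1.14%), 0.61% in mKO2low (0.18% to 1.14%), 0.56% in mKO2neg (0.18% to 1.30%) and 0.50% in mAG+ (0% to 1.00%). The ranges overlapped almost wholly and mAG+ had the lowest median. The median cell had a count in 11, 11.5, 11 and 10 of the 35 genes in those gates, against 16, 18.5, 17 and 20 at the deposited depth, where mAG+ cells are deepest. The ratio of mKO2low to mKO2high for the sum was 0.06 after thinning, and that of mAG+ to mKO2neg was -0.25. The mAG+ cell with the smallest share had 1 count in the 35 genes out of 11768 and none of Myc or Mycn.

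**Figure D4:**
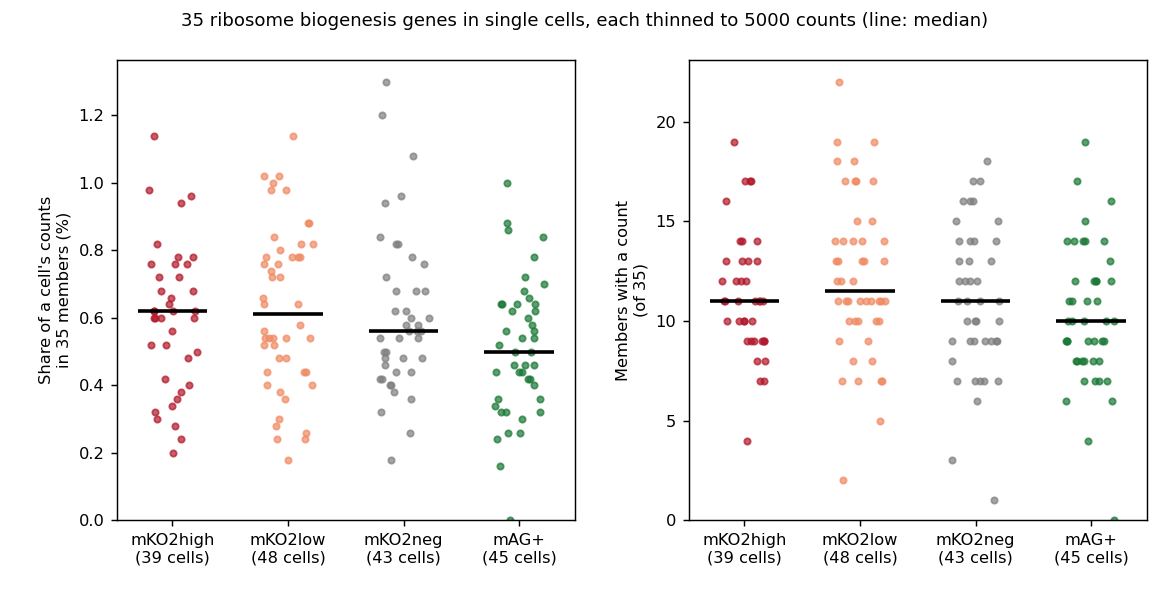
Left, percent of each cell's counts in the 35 ribosome biogenesis genes, and right, number of the 35 genes with a count, both after thinning to 5000 counts; each point is a cell and each line the gate's median. Median shares run from 0.50% in mAG+ to 0.62% in mKO2high and the clouds overlap.

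Other factors of the same pathway were more often lower than higher in mAG+. Of 96 other biogenesis factors measured in both gates of that library, 61 were lower and 35 higher in mAG+ than in mKO2neg, with a median ratio of -0.19, and 28 (29.2%) were lower and 15 (15.6%) higher by at least 1.5-fold, against 24.3% and 31.2% of all genes. For mKO2low to mKO2high the counts were 22 lower and 19 higher of 97 by that fold (22.7% and 19.6%, against 25.2% and 29.4% of all genes), with a median of -0.05. Other large subunit factors were 13 of 36 lower (36.1%) and 4 higher in mAG+. Nop53, the most counted of them and a large subunit factor, had 739, 533, 582 and 388 CPM with a ratio of mAG+ to mKO2neg of -0.59 (-0.72 to -0.46). Ddx24 and Rsl1d1 had ratios of -0.52 and -0.02. Other small subunit factors were 9 of 40 lower (22.5%) and 7 higher, with the share lower near that of all genes. Utp11, Imp3 and Emg1, the most counted of them, had ratios of -0.68, -0.14 and 0.02. Other polymerase I and III genes were 6 of 20 lower and 4 higher, with Taf1d, a rDNA promoter factor, at 0.78 (0.53 to 1.04), Polr1d at 0.28 and Znrd1 at -0.19.

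Partners and antagonists of Myc went both ways. Of 11 measured, 6 were higher and 4 lower by at least 1.5-fold in mAG+ than in mKO2neg, against 31.2% and 24.3% of all genes. Mxd3, which pairs with Max and represses Myc sites, had 0 counts in mKO2high, 3 in mKO2low and 30 in mKO2neg, and 403 in mAG+, or 144 CPM in mAG+ against 18.6 in mKO2neg, a ratio of 2.92 (2.42 to 3.54). Its level was thus high where Mycn and Myc were low. Mga, another Max partner, had 72.8, 75.7, 127 and 75.9 CPM, highest in mKO2neg. Huwe1, a ubiquitin ligase that targets Myc proteins, had 51.4, 63.4, 64.0 and 116 CPM, highest in mAG+. Other growth genes known to be bound by Myc had 5 of 25 lower and 5 higher (20% each, below both shares of all genes) and a median of -0.08. Among them Ran, the nuclear transport GTPase, was higher in mAG+ at 1.01 (0.90 to 1.13), Ptma, prothymosin, at 0.41 (0.35 to 0.47), and Eif5a, a translation factor, was at -0.33 (-0.40 to -0.25).

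Across the libraries the gates cannot be told apart from the library, and these comparisons share their gates with those above. For mKO2neg to mKO2low, 4 members were higher by 1.5-fold (Heatr1, Tsr1, Wdr12 and Ebna1bp2) against a background of 25.5%, and 9 were lower (24.3%) against 26%. Without the deepest cell of each gate, 7 were higher, a set of cells for which the shares of all genes were not calculated. The median was -0.17 and the sum of the 35 genes had a ratio of -0.11 (-0.15 to -0.07), while Myc and Mycn were higher at 0.40 (0.19 to 0.62) and 0.41 (0.21 to 0.62). For mAG+ to mKO2high, 0 members were higher by 1.5-fold against a background of 35.6%, and 15 (40.5%) were lower against 26.9%. Up to 4 were higher by that fold when single cells were left out, again with no share of all genes calculated. There the median was -0.43 and the sum had a ratio of -0.04 (-0.09 to 0.01), with Npm1 and Ncl higher at 0.50 (0.40 to 0.60) and 0.55 (0.42 to 0.68) and most others lower. Myc and Mycn were lower at -1.31 (-1.55 to -1.08) and -2.07 (-2.40 to -1.76). Rrs1, Nob1, Rrp1b, Rcl1, Ltv1 and Nip7 had ratios between -1.92 and -0.99.

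Summed levels of cell type markers differed between the gates. The 12 stem and progenitor genes, all with counts in each gate, summed to 2775 CPM in mKO2high, 2616 in mKO2low and 2451 in mKO2neg, and 1932 in mAG+. Of these, 5 of 12 (41.7%) were at least 1.5-fold lower in mAG+ than in mKO2neg, against 24.3% of all genes. B cell genes summed to 82.4, 102, 108 and 202 CPM, and 3 of their 5 measured genes (60%) were higher in mAG+ by that fold, against 31.2% of all genes. Of the counts of Cd79a, Ebf1 and Pax5 in mAG+, 97.4% lay in a single cell. With all cells holding any of these 3 genes left out, which leaves 46, 47, 44 and 42 cells, 13 members were lower and 3 higher in mAG+ than in mKO2neg. The shares of all genes were not calculated for this set of cells. Myc and Mycn were then at -0.89 and -2.67. Neutrophil genes summed to 466, 515, 808 and 443 CPM, monocyte and macrophage genes to 1059, 1030, 1044 and 595 CPM, nearly all Lyz2, and megakaryocyte genes to 424, 196, 247 and 192 CPM. Single neutrophil and megakaryocyte genes went both ways from mKO2neg to mAG+. Of 7 measured neutrophil genes, 3 were higher and 3 lower by at least 1.5-fold. Of 5 measured megakaryocyte genes, 3 were higher and 2 lower by that fold. The shares of all genes were 31.2% higher and 24.3% lower. T and NK cell genes summed to 0, 29.9, 29.8 and 38.0 CPM, although the T cell marker Cd3e had 0 counts. Stromal and endothelial genes summed to 26.8, 29.4, 33.6 and 36.9 CPM, although Lepr and Cdh5 had 0 counts. The part of the neutrophil, monocyte and megakaryocyte genes in the differences above was not tested.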

How the data were processed

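The authors deposited raw read counts as integers, in 1 table per library, and a table with the gate of each cell. The submitters' processing notes name HISAT2, HTSeq 0.11.3, Seurat and mm10 and give no role or order. Annotation release, filters, strand setting and use of molecular identifiers were not given in the sources used here. By gene ID, 53273 of 53378 rows were found in GENCODE M21, and the other 105, with 0.222% of counts, were not used. Each gene was then read from the preceding row, a step of this re-analysis that no label states. The members and lists were chosen with earlier results of these data known, and no list supports another.

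Counts were summed by gate and scaled to CPM. Ratios used a prior count of 1, with exact conditional binomial 95% intervals, Poisson intervals for levels and Clopper-Pearson for shares. With no count, 3 counts were taken as the limit. Values are given in every gate for Myc, Mycn and members with at least 10 counts in each gate, and from each other pathway list the 3 genes with the most counts are named. Thinning used random seed 11. The ratio calculation was tested on simulated data. Doublets were not called. Some genes of the cell type lists are not reported here and are left out of the lists' sums. Near-identical genes (at least 90% over 300 bases) were sought with BLAST+ 2.17.0. Alternatives were edgeR 4.0.16 TMM factors, DESeq2 1.42.0 size factors, equal weight per cell, thinning, a cell filter, other count and fold limits, single cells left out and the labels as deposited. Python 3.11.15, NumPy 2.4.6, pandas 2.3.3, SciPy 1.17.1, matplotlib 3.10.9 and R 4.3.3 were used.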

Additional observations from a re-analysis of the deposited data

How the results depend on the processing

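Myc and Mycn kept their lower level in mAG+ than in mKO2neg under 10 alternatives that read the genes from the preceding row, with ratios of -1.14 to -0.88 and -2.67 to -2.17. Of these, no filter on low counts could not change any member's value, because all 37 members passed that filter in each comparison. TMM factors, DESeq2 size factors, a filter of cells and a prior count of 0.5 moved none of the 4 comparisons' counts of members by over 1.5 times and no sum or median beyond its counting interval. Over all alternatives other than the labels as deposited, 97 of 1464 member values had the opposite sign, and 6 of these were of genes called at 1.5-fold. The 1464 include 148 values with no filter on low counts, which could not differ. The lower median in mAG+ than in mKO2neg kept its sign throughout, whereas that of mKO2low to mKO2high did not. No paired analysis was possible because each gate is 1 sample and no replicate number is shared. Depth limits the scarcest genes: Heatr1 and Tsr1 have under 10 counts in a gate. The cause of each change below was not tested. Shares of all genes were calculated for the main setting only, so the counts of members below have no background share.

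With equal weight for each cell, mKO2low to mKO2high had 3 members lower, a sum of 0.16 and a median of -0.060; mAG+ to mKO2neg had 1 higher and a median of -0.53; mKO2neg to mKO2low had a median of -0.063; and mAG+ to mKO2high had 1 higher, a sum of -0.15 and a median of -0.64. Heatr1 then had ratios of 1.12 for mAG+ to mKO2neg and -0.26 for mKO2neg to mKO2low. Thinned to 5000 counts, mKO2low to mKO2high had a sum of 0.061 and a median of -0.060, with Dkc1 at -0.22, Nop14 at -0.018, Myc at -0.32 and Mycn at -0.50. Thinned, mAG+ to mKO2neg had a sum of -0.25 and a median of -0.32, mKO2neg to mKO2low a sum of -0.050 and a median of -0.011, and mAG+ to mKO2high a sum of -0.24. With the top cell of each gene left out, the sums in the same 4 comparisons were 0.32, -0.062, -0.23 and 0.034. The median was then -0.27 for mAG+ to mKO2neg and -0.27 for mKO2neg to mKO2low, 4 members were higher in mAG+ than in mKO2high, and Heatr1 was at 0.60 for mAG+ to mKO2neg. At a fold of 2, mKO2low to mKO2high had 3 higher and 2 lower, mAG+ to mKO2neg 0 and 6, mKO2neg to mKO2low 2 and 4, and mAG+ to mKO2high 9 lower.

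Under the labels as deposited, most members had too few counts for a value. There mKO2low to mKO2high had 2 higher, a sum of -0.39 and a median of -0.22, with Myc at 3.13, Polr1c at -0.99 and Nob1 at 0.46. For mAG+ to mKO2neg 3 were lower, with a sum of 0.15, a median of -0.12 and Polr1c at 0.30. For mKO2neg to mKO2low 2 were lower, with a sum of 0.13, a median of 0.10 and Rrs1 at 3.87. For mAG+ to mKO2high 1 was higher and 4 lower, with a sum of -0.11, a median of -0.30 and Mybbp1a at 1.20. Chosen after seeing the data, dropping every gate's deepest cell gave 7 members higher in mKO2neg than in mKO2low, 2 higher in mAG+ than in mKO2high, and Heatr1 at 0.82 for mAG+ to mKO2neg. Also chosen after seeing the data, leaving out cells with a count of Cd79a, Ebf1 or Pax5 gave a median of -0.29 for mAG+ to mKO2neg and 1 member higher in mAG+ than in mKO2high.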
